A study of Mus musculus with 12 samples.

Results

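The genes described here are 10 transcripts that are widely used as markers of alternative activation, the state that macrophages and related cells enter in response to interleukin-4 (IL-4) or IL-13. They were chosen by symbol from the count table, which holds 55471 genes: *Il4ra*, *Mrc1*, *Clec10a*, *Mgl2*, *Arg1*, *Tgm2*, *Chil3*, *Retnla*, *Ear2* and *Ccl24*. All 10 were in the table and all 10 had enough counts to be tested. They were measured by RNA-seq in 12 libraries of mouse bone marrow-derived dendritic cells (DCs), cells grown from bone marrow of C57BL/6 mice under the growth factor GM-CSF. Per the study's methods, the mice were female and aged 8 to 20 weeks. All cells carried a retrovirus with a human CD8 reporter, on which they were sorted with magnetic beads, and the viral short hairpin RNA was directed at firefly luciferase (shControl) or at *Ppargc1b* (sh*Ppargc1b*). *Ppargc1b* encodes PGC-1β, a transcriptional co-activator of mitochondrial genes. Cells with each hairpin were left unstimulated or were given interferon-β (IFN-β), an antiviral cytokine, for 6 h, which gives 4 groups of 3 libraries. No IL-4 or IL-13 was named among the additions to these cultures, so the markers were measured without their usual stimulus. The labels do not say which hairpin against *Ppargc1b* was sequenced, whether marrow of several mice was pooled, or whether the 3 libraries of a group came from separate cultures, so p-values measure only the spread between these libraries, which may be technical.

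IL-4 binds a receptor whose specific chain is IL-4Rα, the product of *Il4ra*, paired with the common γ chain (*Il2rg*) or with *Il13ra1*. Janus kinases on the receptor then phosphorylate STAT6, which enters the nucleus and turns on genes of uptake receptors, of arginine-consuming enzymes and of secreted lectins and chemokines. PPARγ and its co-activators, among them PGC-1β, are known as partners of STAT6 in macrophages, and interferon-γ is known to oppose much of this programme. GM-CSF cultures of bone marrow hold cells with both dendritic and macrophage features, in which several of these markers are made without added IL-4.

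STAT6 is known to bind a palindrome with the letters TTCNNNNGAA. Promoter sequences of RefSeq (GRCm38.p6, 250 bases before to 50 after the gene start) were at hand for 6 of the 10 genes, *Il4ra*, *Mrc1*, *Mgl2*, *Chil3*, *Retnla* and *Ear2*. This palindrome was searched on both strands together with the interferon-response letters GAAANNGAAA and the PPAR repeat AGGTCANAGGTCA. The palindrome was found in 1 of the 6 promoters, that of *Retnla*, and in 6.95% of all 32851 promoters in the collection. Neither the interferon-response letters (3.44% of all) nor the PPAR repeat (0.0396% of all) was found in any of the 6. A match describes letters in a short window and does not show that a factor binds. The stretch that holds it lies upstream of 1 of the markers that fell most after the knockdown and is shown 5′ to 3′ on the gene's strand, with the match in capitals. It lies at chr16:48842359-48842550 on the plus strand, and the match starts 145 bases before the RefSeq start of the gene and 87 bases before its start in the GENCODE annotation, which is given with the gene below.
Retnla: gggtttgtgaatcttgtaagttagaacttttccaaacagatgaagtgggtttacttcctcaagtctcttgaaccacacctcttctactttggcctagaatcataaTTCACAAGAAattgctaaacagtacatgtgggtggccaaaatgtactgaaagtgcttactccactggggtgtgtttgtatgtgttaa

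Library totals ran from 49.9 to 77.7 M counts, and 18228 genes were tested. Levels are given as CPM (counts relative to library size), with library sizes adjusted by edgeR's TMM factors, in the order of replicates 1, 2 and 3, numbers that follow the order of the sample records. Differences are log2 fold changes with their standard error (SE), on which 1 is a factor of 2, and a gene is said to have risen or fallen where its adjusted p from edgeR's quasi-likelihood F-test was under 0.05. The targeted gene, *Ppargc1b*, was at 33.3 to 36.7 CPM in unstimulated shControl libraries and at 18.6 to 20.3 CPM in unstimulated sh*Ppargc1b* libraries, and at 23.6 to 31.4 and 15.5 to 20.9 CPM with IFN-β. Macrophage markers summed to 2275 to 3205 CPM and dendritic markers to 3554 to 5192 CPM over the 12 libraries, so both kinds of transcript were abundant. In a bulk library, fewer cells of a type and less RNA per cell cannot be told apart.

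The 10 genes did not move as a group when *Ppargc1b* was knocked down. In unstimulated cells *Mrc1*, *Retnla*, *Ear2*, *Arg1* and *Clec10a* fell while *Ccl24*, *Tgm2* and *Chil3* rose, so that 8 of 10 passed the test, where 23.6% of all tested genes did. By direction, 5 were lower and 3 higher, against 11.1% and 12.4% of all genes. With IFN-β 7 of 10 passed (24.2% of all genes), of which 4 were lower (12.7% of all) and 3 higher (11.5% of all). *Mrc1*, *Retnla*, *Ear2* and *Arg1* were lower and *Ccl24* and *Chil3* higher in both settings, which makes 6 of 10. Of all 18228 genes, 1343 were lower and 1427 higher in both settings, and 15.4% passed in both whatever the direction. The comparisons with and without IFN-β used different libraries. The median log2 difference of the 10 genes was -0.30 without and -0.14 with IFN-β, where all genes had medians of -0.0049 and -0.01. The median size of the difference regardless of sign was 0.59 and 0.69, against 0.17 and 0.18 over all genes. Among genes that passed, a size of at least 1 was reached by 4 of the 10 without IFN-β and 5 with it, where 3.53% and 3.16% of all genes did so. The sh*Ppargc1b* and shControl libraries did not overlap for 9 of the 10 without IFN-β (36.8% of all genes) and for 7 with it (38.7% of all genes).

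**Figure D1:**
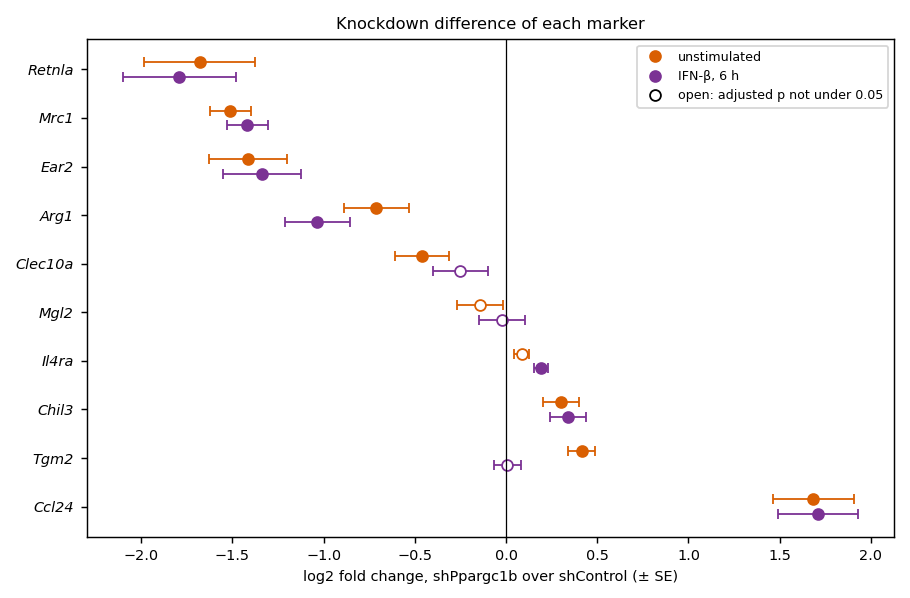
Knockdown difference of each marker as log2 fold change of shPpargc1b over shControl (horizontal axis, bars are ± SE) without IFN-β (orange) and with IFN-β for 6 h (purple), where open points did not pass the adjusted p of 0.05. Retnla, Mrc1 and Ear2 sit between -1.79 and -1.34 in both settings, and Ccl24 sits at 1.68 and 1.71.

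Per kilobase of exon, which allows genes to be compared, *Chil3* had the highest level in unstimulated shControl cells at 889 ± 124 CPM per kb (SD, n = 3), followed by *Arg1* at 527 ± 100.01. *Ear2* followed at 182 ± 21.5 CPM per kb. *Tgm2* at 82.6 ± 7.51 and *Mgl2* at 80.7 ± 10.9 CPM per kb did not differ beyond their spread, and *Mrc1* was at 48.1 ± 5.44 and *Il4ra* at 26.0 ± 0.767. *Clec10a* at 5.55 ± 0.655 and *Retnla* at 4.93 ± 1.46 CPM per kb again did not differ beyond their spread, and *Ccl24* was lowest at 1.16 ± 0.258. The chitinase-like protein and arginase transcripts were thus far more abundant than those of *Retnla* and *Ccl24*.

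**Figure D2:**
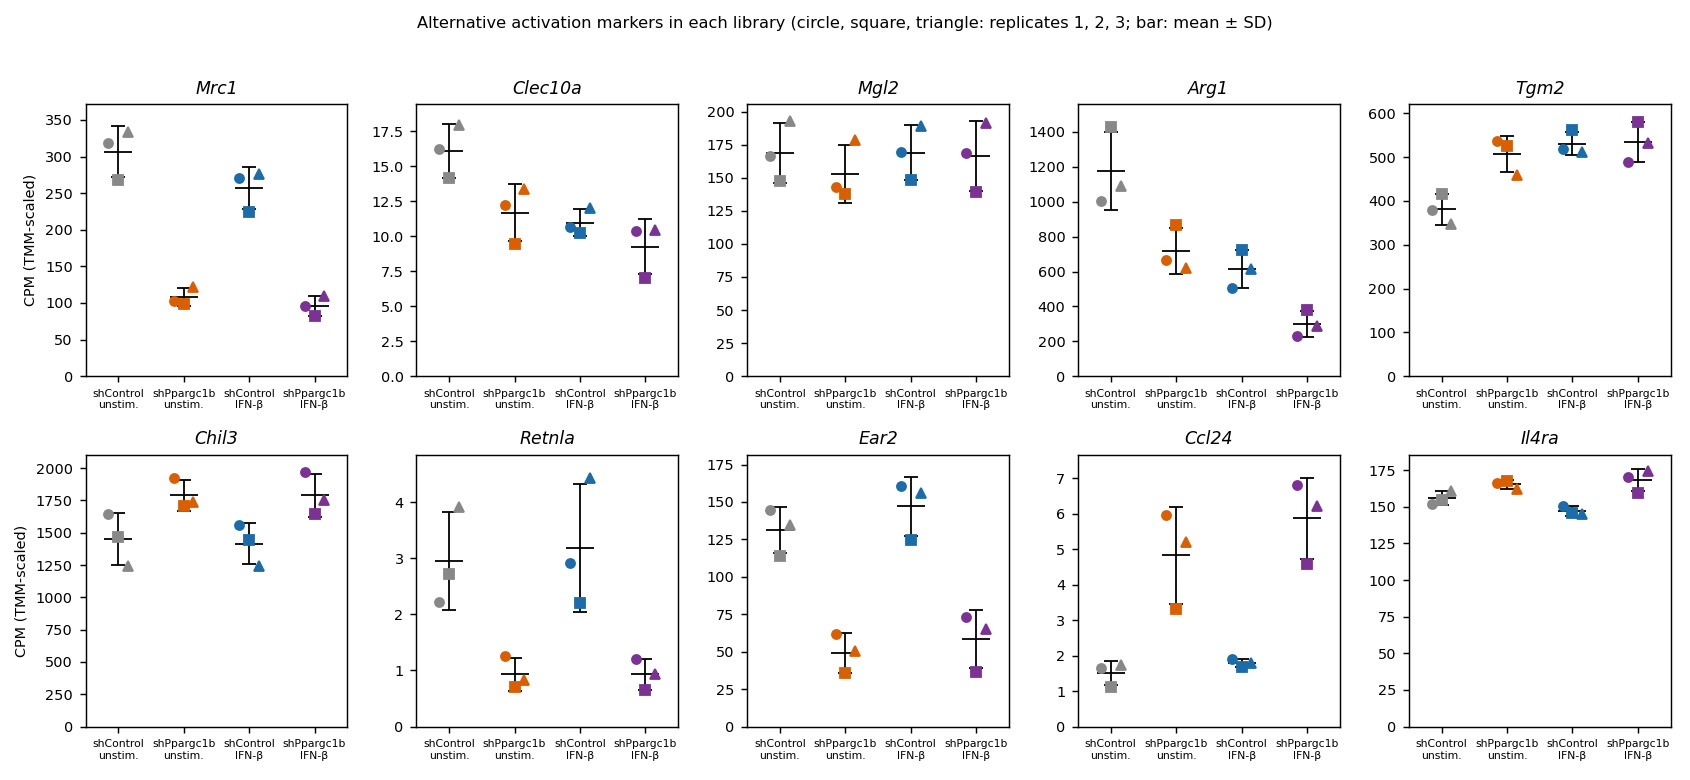
Level of each marker in every library (vertical axis, TMM-scaled CPM from 0, different scale in each panel), with circle, square and triangle for replicates 1, 2 and 3 and a bar for the mean ± SD of 3 libraries. For Mrc1, Ear2, Retnla and Ccl24 the shControl and shPpargc1b libraries do not overlap with or without IFN-β, while those of Mgl2 overlap throughout.

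Signals of IL-4 and IL-13 to STAT6 pass through the receptor chain IL-4Rα. *Il4ra* (ENSMUSG00000030748, chr7:125552120-125579474, plus strand, GRCm38) was at 152, 155 and 161 CPM in unstimulated shControl libraries and at 166, 168 and 162 CPM in unstimulated sh*Ppargc1b* libraries. With IFN-β it was at 151, 145 and 145 CPM in shControl and at 170.3, 159.7 and 174 CPM in sh*Ppargc1b*. The groups did not overlap in either setting, but the gap was small. The knockdown difference was 0.09 ± 0.04 without IFN-β (adjusted p = 0.147), which missed the threshold, and 0.19 ± 0.04 with it (adjusted p = 0.00263). In each group its SD was smaller relative to its mean than that of the other 9 genes. An antisense gene that shares 571 exonic bases with *Il4ra* had 23 counts in all.

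The partner chains of this receptor did not pass the test in the knockdown. Of 3 tested receptor genes 0 rose or fell without IFN-β, and *Il4ra* alone rose with it. *Il2rg*, the common γ chain, differed by 0.13 ± 0.07 and 0.11 ± 0.07, and *Il13ra1* by 0.17 ± 0.07 and -0.12 ± 0.07, without and with IFN-β. *Il13ra2*, a decoy receptor, had 9 counts over all libraries and was not tested. Both ligands were close to undetected, with 2 to 13 counts of *Il4* per library and 28 counts of *Il13* over all 12. *Il4* gave a difference of -0.20 ± 0.58 at that depth and *Il13* was not tested.

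Of 10 signalling genes, 1 rose and 1 fell without IFN-β, which is near the shares of all genes (12.4% higher and 11.1% lower), and 2 rose and 2 fell with it (11.5% and 12.7% of all). Their median differences were -0.06 and -0.09. *Jak2*, a kinase of the receptors for IL-13 and for GM-CSF, rose in both settings, by 0.61 ± 0.05 and 0.24 ± 0.05. *Irs2*, an adaptor that couples IL-4Rα to PI3 kinase, fell by 0.36 without IFN-β and was at 0.12 ± 0.05 with it. *Cish*, a feedback inhibitor, rose by 0.28 ± 0.09 with IFN-β, where *Ptpn6*, a phosphatase, fell by 0.28 and *Tyk2*, a kinase, fell by 0.16. *Stat6* itself differed by -0.09 ± 0.03 in both settings and missed the threshold (adjusted p = 0.0518 and 0.0532). The kinases *Jak1* (-0.08 and -0.07) and *Jak3* (-0.13 and -0.23), the phosphatase *Ptpn11* (-0.04 and -0.09) and the inhibitor *Socs1* (0.18 and -0.15) did not pass the test in either. Apart from *Jak2* and *Irs2*, the knockdown differences of these signalling genes were 0.28 or less in size.

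Of the 3 lectin receptors, which bind sugars on microbes and glycoproteins and take them up, *Mrc1* had the clearest difference. *Mrc1* (ENSMUSG00000026712, chr2:14229392-14332057, plus strand) encodes the mannose receptor CD206. It was at 319, 268 and 334 CPM in unstimulated shControl libraries and at 102, 98.6 and 122 CPM in unstimulated sh*Ppargc1b* libraries. IFN-β-treated libraries were at 271, 225 and 276 CPM in shControl and at 95.6, 82.7 and 110.2 CPM in sh*Ppargc1b*. The highest knockdown library was below the lowest control library by a wide margin in both settings. The difference was -1.51 ± 0.11 without IFN-β and -1.42 ± 0.11 with it (adjusted p = 2.0e-07 and 5.8e-07). *Mrc2*, a related receptor of 16 to 51 counts per library, differed by 0.79 ± 0.29 and 0.40 ± 0.29 and missed the threshold in both settings (adjusted p = 0.0647 and 0.359).

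*Clec10a* and *Mgl2* encode a pair of galactose-type lectins, CD301a and CD301b, from neighbouring genes on chromosome 11. *Clec10a* (ENSMUSG00000000318, chr11:70156197-70170834, plus strand) was at 16.2, 14.1 and 17.9 CPM in unstimulated shControl libraries and at 12.2, 9.44 and 13.4 CPM in unstimulated sh*Ppargc1b* libraries. Under IFN-β the gene was at 10.7, 10.2 and 12.04 CPM in shControl and at 10.4, 6.99 and 10.4 CPM in sh*Ppargc1b*. The groups were apart without IFN-β and overlapped with it. The difference was -0.46 ± 0.15 (adjusted p = 0.0329) and -0.25 ± 0.15 (adjusted p = 0.270). With a term in the fit for the 3 runs of consecutive library codes it passed in both settings, at -0.47 and -0.26 (adjusted p = 3.2e-04 and 0.0299). The call without IFN-β was lost when 1 library was left out in 4 cases, with adjusted p = 0.0758 without shControl replicate 1, 0.124 without shControl replicate 3, 0.0514 without sh*Ppargc1b* replicate 1 and 0.151 without sh*Ppargc1b* replicate 2.

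*Mgl2* (ENSMUSG00000040950, chr11:70130329-70137550, plus strand) was more abundant per kilobase than its neighbour and did not pass the test in any comparison of the 4 groups alone. It was at 166, 148 and 193 CPM in unstimulated shControl libraries and at 143, 138 and 178 CPM in unstimulated sh*Ppargc1b* libraries. In the presence of IFN-β it was at 169, 148 and 189 CPM in shControl and at 169, 139 and 192 CPM in sh*Ppargc1b*. All groups overlapped, and the knockdown differences were -0.14 ± 0.13 and -0.02 ± 0.13. With a term for the runs of library codes the former passed the test (adjusted p = 0.0147). Of the stretches of 50 bases in its transcripts, 12.2% also occur in transcripts of *Clec10a*, and 8.49% of those of *Clec10a* occur in *Mgl2*, so reads that lie wholly within such stretches may be counted for neither gene.

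Among the intracellular enzymes, *Arg1* fell and *Tgm2* rose in unstimulated knockdown cells. *Arg1* (ENSMUSG00000019987, chr10:24915221-24927484, minus strand) encodes arginase-1, which turns arginine into ornithine and urea. It was at 1006, 1427 and 1091 CPM in unstimulated shControl libraries and at 667, 865 and 621 CPM in unstimulated sh*Ppargc1b* libraries. With IFN-β it was at 504, 721 and 616 CPM in shControl and at 230.3, 379 and 289 CPM in sh*Ppargc1b*. The knockdown groups were lower and apart from the controls in both settings, and the sh*Ppargc1b* libraries with IFN-β were the lowest of the 12. The knockdown difference was -0.71 ± 0.18 without IFN-β and -1.03 ± 0.18 with it (adjusted p = 0.00793 and 5.2e-04).

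*Tgm2* (ENSMUSG00000037820, chr2:158116402-158146436, minus strand) encodes tissue transglutaminase, which cross-links proteins and is a marker shared by human and mouse cells. It was at 378, 416 and 347 CPM in unstimulated shControl libraries and at 536, 525 and 459.7 CPM in unstimulated sh*Ppargc1b* libraries. IFN-β-treated libraries were at 519, 561 and 512 CPM in shControl and at 489, 580.1 and 531 CPM in sh*Ppargc1b*. Unstimulated shControl libraries were lower than the other 9 libraries, among which the groups overlapped. The knockdown difference was 0.41 ± 0.08 without IFN-β and 0.01 ± 0.08 with it (adjusted p = 8.0e-04 and 0.962). The strand setting of the counting is not given in the sources used here, and *Tgm2* shares 370 exonic bases with *Rprd1b* on the opposite strand. *Tgm1*, another transglutaminase, differed by 0.04 ± 0.15 and 0.16 ± 0.15.

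The other genes of arginine use did not follow *Arg1*. Of 9 tested, 5 rose and 0 fell without IFN-β (12.4% and 11.1% of all genes), and 4 rose and 0 fell with it (11.5% and 12.7% of all). Their median differences were 0.29 and 0.09. *Arg2*, the mitochondrial arginase, rose by 0.61 ± 0.15 and 0.67 ± 0.15. *Ass1*, which remakes arginine from citrulline, rose by 0.45 ± 0.05 and 0.23 ± 0.05, and the polyamine genes *Odc1* (0.29 ± 0.07 and 0.27 ± 0.07) and *Srm* (0.59 ± 0.20 and 1.21 ± 0.23) rose in both settings too. *Nos2*, the inducible nitric oxide synthase that competes with arginase for arginine, rose by 0.95 ± 0.18 without IFN-β and was at -0.20 ± 0.17 with it (adjusted p = 0.00125 and 0.469). The transporter *Slc7a2* (-0.08 and -0.22), *Asl* (0.06 and 0.01), *Oat* (-0.04 and 0.09) and *Sms* (0.15 and -0.06) did not pass the test in either setting. Per kilobase of exon, *Arg1* was at 527 and *Nos2* at 10.6 CPM per kb in unstimulated shControl cells, 322 and 20.6 in unstimulated sh*Ppargc1b* cells, 275 and 80.9 in shControl cells with IFN-β, and 134 and 70.5 in sh*Ppargc1b* cells with IFN-β. *Arg1* thus stayed the more abundant transcript of the pair in each group.

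The 4 secreted proteins split evenly by direction. *Retnla* (ENSMUSG00000061100, chr16:48842551-48844461, plus strand) encodes RELMα, known as FIZZ1, a small secreted protein that IL-4 induces strongly in mouse macrophages, and its upstream stretch with the palindrome is shown above. It was at 2.22, 2.72 and 3.92 CPM in unstimulated shControl libraries and at 1.26, 0.70 and 0.83 CPM in unstimulated sh*Ppargc1b* libraries. Under IFN-β the gene was at 2.92, 2.19 and 4.43 CPM in shControl and at 1.20, 0.65 and 0.94 CPM in sh*Ppargc1b*. These levels rest on 37 to 315 counts per library, and no knockdown library reached a control library. The difference was -1.68 ± 0.30 without IFN-β and -1.79 ± 0.31 with it (adjusted p = 7.6e-04 and 5.2e-04). Of its family, *Retnlg* had 2 to 17 counts per library and differed by -0.78 ± 0.58 and -0.68 ± 0.67, *Retn* had 21 counts in all and *Retnlb* 0.

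*Ear2* (ENSMUSG00000072596, chr14:44102654-44103534, plus strand) encodes a secreted ribonuclease of the eosinophil-associated family. It was at 144, 114 and 135 CPM in unstimulated shControl libraries and at 61.7, 35.5 and 50.4 CPM in unstimulated sh*Ppargc1b* libraries. In the presence of IFN-β it was at 161, 124 and 156 CPM in shControl and at 73.0, 36.3 and 65.2 CPM in sh*Ppargc1b*. The groups were well apart in both settings. The difference was -1.42 ± 0.21 without IFN-β and -1.34 ± 0.21 with it (adjusted p = 1.6e-04 and 2.8e-04). Of the stretches of 50 bases in its transcripts 41.5% also occur in other genes, among them *Ear10* (26.0%) and *Ear1* (23.6%), so its level is uncertain.

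The relatives of *Ear2* that could be tested were lower or missed the threshold. *Rnase2a* fell by 0.74 and 0.80, and *Rnase2b*, at 6 to 44 counts per library, fell by 1.16 and 1.44. *Ear1* differed by -0.76 ± 0.49 and -0.72 ± 0.51 and *Ear6* by -0.02 ± 0.18 and 0.28 ± 0.18. *Ear10* and *Ear14* had 16 and 2 counts in all, and *Ear3* was not analysed here. Eosinophil marker sums overlapped between the hairpins: the 6 genes summed to 33.7 to 64.9 CPM in unstimulated shControl and 23.7 to 45.4 in unstimulated sh*Ppargc1b* libraries, and 31.1 to 61.2 and 22.7 to 45.6 CPM with IFN-β. Of the 6, 0 passed edgeR's test in any comparison, with *Epx* at -1.01 ± 0.71 and *Prg2* at -0.34 ± 0.56 without IFN-β. The lowest of the 6 was *Il5ra* with 3 to 26 counts per library. Markers of alveolar macrophages, a cell that GM-CSF maintains and that makes *Ear2*, had a lower sum in the knockdown (158 to 167 and 118 to 131 CPM without IFN-β, 185 to 191 and 145 to 155 with it). Of the 4 tested 2 fell in each setting, where 11.1% of all genes fell without IFN-β and 12.7% with it. *Marco* fell by 1.11 and 1.25 and *Fabp4* by 1.14 and 0.65, while *Car4*, the most abundant of the 4, was at -0.0054 and -0.09 and *Siglecf* at -0.32 and -0.38 (adjusted p = 0.127 and 0.0710). *Krt79* and *Krt19* had 22 and 37 counts in all. The part of these cells in the *Ear2* result was not tested.

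*Chil3* (ENSMUSG00000040809, chr3:106147554-106167564, minus strand) encodes Ym1, a chitinase-like lectin without enzyme activity. It was at 1645, 1467 and 1241 CPM in unstimulated shControl libraries and at 1926, 1706 and 1735 CPM in unstimulated sh*Ppargc1b* libraries. With IFN-β it was at 1556.5, 1445 and 1243 CPM in shControl and at 1971, 1643 and 1756 CPM in sh*Ppargc1b*. The groups were apart, but the lowest knockdown library lay close above the highest control library in both settings. The difference was 0.30 ± 0.10 without IFN-β and 0.34 ± 0.10 with it (adjusted p = 0.0365 and 0.0197).

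Both calls for *Chil3* were lost when some single libraries were left out. With a term for the runs of library codes both were kept, at 0.31 and 0.34 (adjusted p = 4.7e-04 and 1.9e-04). Without IFN-β the call was lost without sh*Ppargc1b* replicate 1 (adjusted p = 0.126), 2 (0.0514) or 3 (0.0551) and without shControl replicate 2 (0.0729) or 3 (0.161). The differences were then 0.25, 0.33, 0.33, 0.31 and 0.20 in that order. With IFN-β it was lost without sh*Ppargc1b* replicate 1 (adjusted p = 0.112) and without shControl replicate 2 (0.0533) or 3 (0.125). Neutrophil markers, whose cells also make *Chil3*, summed to 41.0 to 95.9 CPM in unstimulated shControl and 90.0 to 158 in unstimulated sh*Ppargc1b* libraries, and to 39.1 to 101 and 87.3 to 164 CPM with IFN-β. Of the 8, 1 passed the test in each knockdown comparison, where 12.4% of all genes were higher without IFN-β and 11.5% with it. It was *S100a8*, which rose by 0.83 ± 0.26 and 0.88 ± 0.26, and none was at 3 counts or fewer. The others missed the threshold in both. *S100a9* (0.73 and 0.59), *Ltf* (0.34 and 0.27), *Camp* (0.81 and 0.94) and *Ngp* (0.75 and 0.78) were higher. *Ly6g* (-0.42 and -0.66), *Elane* (-1.46 and -0.70) and *Mpo* (-0.92 and -0.71) were lower. The part of neutrophils in the *Chil3* result was not tested. The relative *Chil1*, at 19 to 177 counts per library, rose by 1.55 ± 0.34 and 1.35 ± 0.32, and *Chil4*, which shares 16.9% of the 50-base stretches of *Chil3*, had 7 to 30 counts per library and differed by 0.48 ± 0.32 and -0.10 ± 0.38. *Chil5*, *Chil6* and *Chia1* had 7, 17 and 4 counts in all.

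*Ccl24* (ENSMUSG00000004814, chr5:135569937-135573049, minus strand) encodes eotaxin-2, a chemokine that attracts eosinophils through CCR3. It was at 1.66, 1.11 and 1.72 CPM in unstimulated shControl libraries and at 5.96, 3.31 and 5.21 CPM in unstimulated sh*Ppargc1b* libraries. IFN-β-treated libraries were at 1.90, 1.68 and 1.79 CPM in shControl and at 6.79, 4.57 and 6.22 CPM in sh*Ppargc1b*. Counts were 68 to 127 per library in shControl and 226 to 377 in sh*Ppargc1b*, with no overlap. The difference was 1.68 ± 0.22 without IFN-β and 1.71 ± 0.22 with it (adjusted p = 4.5e-05 and 3.8e-05), opposite in sign to *Retnla* and of about the same size. The other eotaxins, *Ccl11* and *Ccl26*, had 7 and 2 counts in all.

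Few of the 10 genes passed the test for IFN-β, although a fit that also held a term for the 3 runs of consecutive library codes called more of them. In shControl cells 3 of 10 passed the test, 2 lower (24.6% of all genes) and 1 higher (23.7% of all), where 48.2% of all genes passed. In sh*Ppargc1b* cells 1 of 10 passed, against 42.6% of all genes. With the term for runs 5 of 10 passed there, where 8388 of 18228 genes did in that fit. These were *Arg1*, *Mrc1* (adjusted p = 0.00658), *Clec10a* (0.00325), *Mgl2* (0.0256) and *Ccl24* (0.0490). *Mrc1* passed with that term in shControl too (1.3e-04), where 4 of the 10 and 9356 of 18228 genes did. The treated and untreated libraries did not overlap for 4 of 10 in shControl and 1 of 10 in sh*Ppargc1b* cells, against 56.7% and 50.1% of all genes. The median size of the difference was 0.21 and 0.14, against 0.32 and 0.27 over all genes. A size of at least 1 was passed by 0 and 1 of the 10 (10.6% and 7.66% of all genes), the 1 being *Arg1*. *Arg1* fell in both kinds of cells, by 0.94 in shControl (SE 0.18, adjusted p = 3.8e-04) and by 1.26 in sh*Ppargc1b* (SE 0.18, adjusted p = 3.3e-05), and no treated library reached an untreated one with the same hairpin. *Clec10a* fell by 0.55 in shControl (SE 0.15, adjusted p = 0.00624) and was at -0.34 ± 0.15 in sh*Ppargc1b* (adjusted p = 0.0886), where leaving out unstimulated sh*Ppargc1b* replicate 2 gave -0.47 with an adjusted p of 0.0223.

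*Tgm2* alone rose, by 0.48 ± 0.08 in shControl (adjusted p = 6.8e-05), and was at 0.07 ± 0.07 in sh*Ppargc1b* cells. Scaling by library totals moved the median of all genes to -0.27 in shControl and -0.22 in sh*Ppargc1b* cells, and *Tgm2* was then at 0.24 in shControl. This rise and the knockdown rise of *Tgm2* share the unstimulated shControl libraries. *Mrc1* was at -0.26 ± 0.11 in shControl (adjusted p = 0.0650) and -0.16 ± 0.11 in sh*Ppargc1b*. It passed the test in shControl without unstimulated shControl replicate 2 (-0.36, adjusted p = 0.0152) or without unstimulated sh*Ppargc1b* replicate 3 (-0.27, adjusted p = 0.0362). *Il4ra* was at -0.08 ± 0.04 and 0.02 ± 0.04, and its value in shControl was -0.12 (adjusted p = 0.0488) without unstimulated shControl replicate 1. Under scaling by library totals *Il4ra*, *Mrc1* and *Chil3* passed in shControl, at -0.32, -0.49 and -0.28 (adjusted p = 9.9e-06, 0.00131 and 0.0273). *Ear2* was at 0.17 ± 0.21 and 0.24 ± 0.21, the latter becoming 0.50 (adjusted p = 0.0280) without IFN-β-treated sh*Ppargc1b* replicate 2. With TMM and 1 mean per group, *Chil3* (-0.04 and 0.00), *Mgl2* (0.00 and 0.12), *Retnla* (0.12 and 0.01) and *Ccl24* (0.26 and 0.28) did not pass the test in either.

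**Figure D3:**
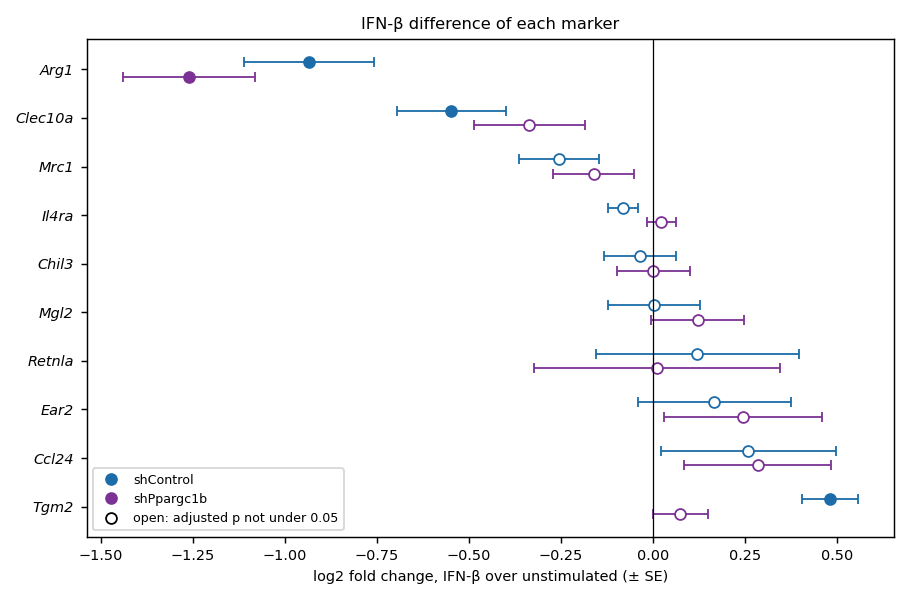
IFN-β difference of each marker as log2 fold change of IFN-β-treated over unstimulated cells (horizontal axis, bars are ± SE) in shControl (blue) and shPpargc1b cells (purple), where open points did not pass the adjusted p of 0.05. Arg1 is at -0.94 and -1.26, and Tgm2 is at 0.48 in shControl and 0.07 in shPpargc1b cells.

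Whether the knockdown difference itself changed with IFN-β was tested by the interaction, the knockdown difference with IFN-β minus that without it. Of the 10 genes 0 passed edgeR's test, against 0.73% of all genes. An unadjusted p under 0.05 was found for 1 of the 10 and for 1909 of 18228 genes, while DESeq2 called 1 of the 10 and 394 of 18228 genes. An interaction of at least 1 in size was called for 0 of the 10 and 0.0494% of all genes. The gene in question was *Tgm2*, with an interaction of -0.41 ± 0.11 (adjusted p = 0.104, over the alternatives 1.6e-07 to 0.332), so the change in its knockdown difference with IFN-β missed the threshold. It passed in edgeR without IFN-β-treated sh*Ppargc1b* replicate 2 (adjusted p = 0.0320), with the term for runs (0.00664) and without the count filter, and in DESeq2 (0.0166). *Arg1* was at -0.32 and *Clec10a* at 0.21, and the other 7 lay between -0.11 and 0.12.

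The regulators that act beside STAT6 also moved in both directions with the knockdown, with 3 of 7 higher and 2 lower in each setting, where 12.4% and 11.1% of all genes were higher and lower without IFN-β and 11.5% and 12.7% with it. *Irf4*, a factor that supports alternative activation, rose by 0.48 ± 0.06 and 0.66 ± 0.06 without and with IFN-β. *Egr2* rose by 0.41 ± 0.06 in both, and *Myc* by 0.39 ± 0.11 and 0.87 ± 0.12. *Klf4*, which works with STAT6 in macrophages, fell by 0.82 and 0.61. *Pparg*, the nuclear receptor that PGC-1β co-activates, fell by 0.52 without IFN-β and was at -0.15 ± 0.10 with it, and *Cebpb*, which drives *Arg1*, was at -0.07 ± 0.06 and fell by 0.29 with it. *Kdm6b*, a histone demethylase, was at -0.09 and -0.14. With IFN-β in shControl cells 5 of the 7 fell and 1 rose (24.6% and 23.7% of all genes), with *Pparg* and *Myc* each lower by 1.31, *Klf4* by 0.65, *Kdm6b* by 0.57 and *Irf4* by 0.29, and *Cebpb* higher by 0.27.

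The IL-4 signalling genes were for the most part higher with IFN-β, where few of the markers were. In shControl cells 8 of 10 rose and 1 fell (23.7% and 24.6% of all genes), and in sh*Ppargc1b* cells 7 rose and 1 fell (21.4% and 21.2% of all). *Socs1* rose by 1.82 ± 0.07 and 1.49 ± 0.06, *Tyk2* by 0.94 ± 0.04 and 0.83 ± 0.04, *Jak2* by 0.92 ± 0.05 and 0.56 ± 0.05, and *Stat6* by 0.10 ± 0.03 in both. *Irs2* fell by 1.19 and 0.70. The receptor chains *Il13ra1* (1.26 ± 0.07 and 0.98 ± 0.07) and *Il2rg* (0.90 ± 0.07 and 0.88 ± 0.07) rose, so 2 of 3 tested receptor genes were higher. Many of these genes also serve the receptors of interferons and of other cytokines. Of the 9 arginine genes 5 rose and 2 fell in shControl cells, and 4 rose and 2 fell in sh*Ppargc1b* cells, led by *Nos2* (2.93 ± 0.19 and 1.78 ± 0.18) and *Srm*, which fell by 2.01 and 1.39.

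A further 20 genes reported as markers of alternative activation, of which 18 were tested, moved in both directions too. Without IFN-β 8 rose and 4 fell in the knockdown (12.4% and 11.1% of all genes), with *Ch25h* (1.25 ± 0.20), *Cdh1* (1.24 ± 0.14) and *Lyve1* (1.19 ± 0.27) rising most and *F13a1* (-0.86 ± 0.06), *Fn1* (-0.73 ± 0.08) and *Igf1* (-0.53 ± 0.05) falling most. With IFN-β 7 rose and 3 fell (11.5% and 12.7% of all genes), with *Lyve1* at 1.89 ± 0.33, the chemokine *Ccl22* at 1.28 ± 0.09 and *Cdh1* at 1.12 ± 0.14, and *F13a1*, *Fn1* and *Igf1* lower by 0.96, 0.82 and 0.41. *Lyve1* had 5 to 59 counts per library. With IFN-β in shControl cells 5 rose, a share near the 23.7% of all genes, and 8 fell (24.6% of all), among them *Ch25h* (3.39 ± 0.19), *Il1rn* (1.18 ± 0.09) and *Ccl22* (0.70 ± 0.09) upward and *Cd163* (-1.997 ± 0.36), *Lyve1* (-1.31 ± 0.34) and *F13a1* (-1.03 ± 0.06) downward. In sh*Ppargc1b* cells 6 rose and 7 fell (21.4% and 21.2% of all), led by *Ch25h* (2.50), *Ccl22* (0.87) and *Il1rn* (0.77) upward and *Cd163* (-2.07), *F13a1* (-1.13) and *Fn1* (-0.96) downward. *Folr2* and *Il10* had 23 and 30 counts in all and were not tested.

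Of 18 markers of classical activation, the state that interferons and microbial products induce, 17 were tested. In the knockdown 8 rose and 0 fell without IFN-β (12.4% and 11.1% of all genes), led by the chemokine *Ccl5* (1.47), *Nos2* (0.95) and the co-stimulatory *Cd86* (0.90). With IFN-β 6 rose and 2 fell (11.5% and 12.7% of all), with *Il12a* (1.80 ± 0.44, at 1 to 43 counts per library), *Ccl5* (0.61) and *Cd80* (0.54) higher and *Cxcl9* (-1.39) and *Cxcl10* (-0.60) lower. In shControl cells 15 of the 17 rose with IFN-β (23.7% of all genes), with *Cxcl11*, *Cxcl9* and *Cxcl10* at 7.28, 7.01 and 6.44. In sh*Ppargc1b* cells 16 rose (21.4% of all), with the same 3 at 6.76, 5.64 and 5.96, and *Il1b* fell by 0.48. *Il23a* had 32 counts in all and was not tested. The medians of the classical list in the knockdown were 0.38 and -0.02 without and with IFN-β, where the 10 alternative markers had -0.30 and -0.14. The 18 further alternative activation genes that were tested had medians of 0.10 and 0.23, opposite in sign to those of the 10.

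**Figure D4:**
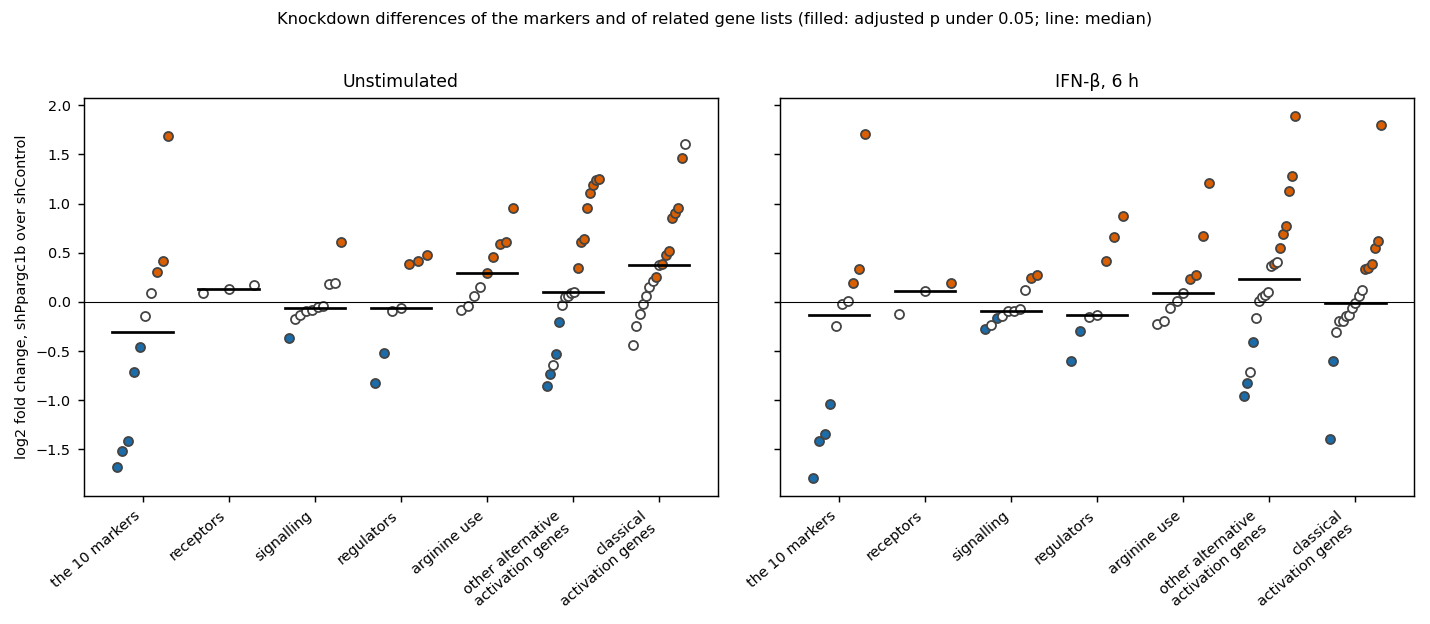
Knockdown differences of the 10 markers and of 6 related gene lists as log2 fold change of shPpargc1b over shControl (vertical axis), without IFN-β (left) and with it (right), each point a gene, filled where the adjusted p was under 0.05 (orange higher, blue lower), with a line at the list median. The 10 markers span from -1.68 to 1.68 without IFN-β. Genes that rose and genes that fell are found in the markers, signalling genes, regulators and other alternative activation genes in both panels. The classical genes have both only with IFN-β.

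Some markers of culture composition differed with the knockdown too, and others did not. Of all genes 12.4% were higher and 11.1% lower without IFN-β, and 11.5% and 12.7% with it. Dendritic markers summed to 3554 to 4183 CPM in unstimulated shControl and 4107 to 4707 in unstimulated sh*Ppargc1b* libraries, and to 3842 to 4627 and 4517 to 5192 CPM with IFN-β. These sums overlapped between the hairpins in both settings. Of the 9 dendritic markers, 4 rose without IFN-β (*Itgax*, *Flt3*, *Zbtb46* and *Ccr7*) and 5 with it, *Dpp4* being added, and 0 fell in either. The macrophage sum was 2275 to 2435 and 2295 to 2374 CPM without IFN-β, which overlapped, and 2956 to 3205 and 2706 to 2894 CPM with it. Of the 9 macrophage markers 1 rose and 2 fell without IFN-β, and 1 rose and 4 fell with it. Mast cell and basophil markers summed to 2.38 to 9.91 and 6.72 to 12.2 CPM without IFN-β and 3.65 to 11.2 and 5.20 to 13.5 CPM with it, and of the 6 *Gata2* rose by 1.64 ± 0.19 and 1.47 ± 0.20. Lymphocyte markers summed to at most 0.947 CPM, with *Ncr1* at 3 counts or fewer in each library. The part of such differences in the falls of *Mrc1*, *Retnla* and *Arg1* and in the rise of *Ccl24* was not tested.

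Within the groups the levels of several markers, but not of all, followed the library codes. Library codes in the labels form 3 runs of 4, each with 1 library of every group, and the labels do not say what a run is. The library of the second run (replicate 2) was the lowest of its group in 4 of 4 groups for *Mrc1*, *Ear2*, *Clec10a*, *Mgl2* and *Ccl24*, and the highest in 4 of 4 groups for *Arg1*. The third run was highest in 4 of 4 groups for *Mrc1*, *Clec10a* and *Mgl2*, and the first for *Chil3* and *Ear2*. *Il4ra* had the same lowest run in only 2 of 4 groups and the same highest run in 2, *Tgm2* in 3 and 3, and *Retnla* in 3 and 2. How often other genes kept such an order was not counted. The eosinophil sum followed the runs as well, at 39.4 and 34.3 CPM in the unstimulated and treated shControl libraries of the first run, 64.9 and 61.2 in the second and 33.7 and 31.1 in the third. In sh*Ppargc1b* libraries it was at 45.4 and 45.6 CPM in the first run, 33.5 and 29.4 in the second and 23.7 and 22.7 in the third. Its order over the runs thus differed between the hairpins, and its part in the spread of the markers was not tested.

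Levels of some of the markers varied together over the 12 libraries. The following correlations are descriptions over libraries that share the 4 groups, with no test. *Retnla* and *Ear2* had a Pearson r of 0.948, *Mrc1* and *Retnla* of 0.922, and *Mrc1* and *Ear2* of 0.920, while *Mrc1* and *Ccl24* had -0.900 and *Clec10a* and *Tgm2* -0.891. *Mgl2* had coefficients from -0.42 with *Tgm2* to 0.49 with *Clec10a*. The gene most like *Mrc1* among 8765 genes compared was *Atp5b* (r = 0.995), a subunit of ATP synthase, which had knockdown differences of -0.51 and -0.52. *Ear2* was most like *Hadha* (0.980), a mitochondrial enzyme of fatty acid oxidation, with -0.35 and -0.31, and *Retnla* most like *Adgre5* (0.980) with -0.76 and -0.64. *Ccl24* was most like *Zbtb46* (0.980), a factor of conventional dendritic cells, with 0.61 and 0.65. The others were paired with *Impdh1* (*Arg1*, 0.980), *Cit* (*Clec10a*, 0.990), *Clec2i* (*Chil3*, 0.918), *Atpif1* (*Mgl2*, 0.892), *Hivep3* (*Tgm2*, 0.960) and *Pip4k2a* (*Il4ra*, 0.937). These genes differed by less than the markers themselves in the cases of *Mrc1*, *Ear2*, *Retnla* and *Ccl24*.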

How the data were processed

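RNA was measured in 12 libraries of mouse bone marrow-derived DCs, 3 in each of 4 groups, which were taken from the labels. Replicates were numbered in record order and were not paired, except in the alternative fit with a block for runs, where a run holds the libraries that share a replicate number. The deposited values were raw counts per gene, which the authors made by depleting ribosomal RNA, trimming adapters with Trim Galore 0.6.0, mapping to GRCm38 (mm10) with STAR 2.7.8a (versions per the submitters' processing notes) and counting with STAR on GENCODE annotation. The study's methods name another STAR release. The strand setting is not given in the sources used here. Reads that map to more than 1 place are not counted by this method, so genes with close copies can be undercounted. All value columns were used.

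The tests were run in edgeR 4.0.16 under R 4.3.3. Genes were kept by filterByExpr (minimum count 10, minimum total 15), which left 18228 genes with 99.96% of the counts, and library sizes were scaled by TMM (factors 0.914 to 1.09). The quasi-likelihood model had a mean for each of the 4 groups and took in all 12 libraries. Contrasts were tested by F-tests with Benjamini-Hochberg adjustment over all genes tested and a threshold of 0.05, and the SE was taken as the log2 fold change divided by the square root of F. An exact permutation test of 3 libraries against 3 cannot go below p = 0.1 and was not used. The script was tested on simulated data. Alternatives were library totals, DESeq2 1.42.0, other count filters, fits of only the groups compared, a block for runs of library codes, leaving out each library, and a limit on the fold change.

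The genes named are the 10 members, every gene of the ligand, receptor, signalling, regulator, arginine and paralog lists, the 3 largest rises and falls past the threshold in the longer lists, and the gene most correlated with each member among those with a mean log2 CPM of at least 3. Cell type markers are named beside the results they touch. The members and lists were chosen with earlier results of these data known. Gene positions and overlaps came from GENCODE M21 (GRCm38) and promoters from RefSeq (GRCm38.p6), where 4 members had no entry. A stretch of 50 bases was called shared where it occurred in transcripts of both genes.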

Additional observations from a re-analysis of the deposited data

Results flagged for a closer look

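In the fit with 1 mean per group, 0 of the 10 markers passed edgeR's test of the interaction (*Tgm2* passed with the block for runs, without IFN-β-treated sh*Ppargc1b* replicate 2 and in DESeq2, and *Tgm2* and *Arg1* without the count filter), but 6 genes of the related lists did, where 0.73% of all genes passed. Of 10 signalling genes 1 had a positive and 1 a negative interaction. Of 17 tested classical genes 3 passed, and of 4 tested alveolar macrophage markers 1, with no call in the other lists. The knockdown difference of *Ccl5*, a chemokine, was 1.47 without and 0.61 with IFN-β, an interaction of -0.85 ± 0.13 (adjusted p = 0.0094). That of *Cd86*, a co-stimulatory molecule, was 0.90 and 0.33, an interaction of -0.57 ± 0.06 (adjusted p = 7.4e-04). For the cytokine *Tnf* it was 0.85 and 0.39, an interaction of -0.46 ± 0.10 (adjusted p = 0.0408), and for the kinase *Jak2* 0.61 and 0.24, an interaction of -0.37 ± 0.07 (adjusted p = 0.0205). *Irs2*, the adaptor of IL-4Rα, was at -0.36 and 0.12, an interaction of 0.49 ± 0.08 (adjusted p = 0.0094), and *Fabp4*, a lipid carrier of macrophages, at -1.14 and -0.65, an interaction of 0.49 ± 0.09 (adjusted p = 0.0254). *Nos2* missed the threshold with -1.15 ± 0.25 (adjusted p = 0.0517). No test of outlying samples was run on these groups of 3 libraries.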

How the results depend on the processing

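Of 890 recomputed values of the 10 genes under the alternatives, 849 stayed on their side of the threshold (56 of these changed sign, with neither value past it), 12 lost the call, 28 gained one and 1 reversed. The losses concerned *Chil3* and *Clec10a* when 1 library was left out. The reversal was *Il4ra* with IFN-β in sh*Ppargc1b* cells, at -0.18 (adjusted p = 0.00214) under scaling by library totals against 0.02 with TMM. That scaling moved the median of all genes to -0.27 and -0.22 in the IFN-β comparisons, and 6 and 4 of the 10 genes then passed in shControl and sh*Ppargc1b* cells, against 3 and 1. Of 18228 genes tested, 10892 and 9891 passed under that scaling, against 8793 and 7760 with TMM. Without the count filter 5 and 4 of the 10 passed in these comparisons and 2 in the interaction, where 8426, 7388 and 525 of 43864 genes did. With a limit of 1 on the size of the log2 fold change, 4 of 10 passed in the unstimulated knockdown and 0 with IFN-β in shControl. DESeq2 called 1 gene in the interaction. Leaving out each library gave 6 to 8 genes for the knockdown without IFN-β, 6 to 7 with it, 3 to 4 for IFN-β in shControl, 1 to 2 in sh*Ppargc1b* (2 without unstimulated replicate 2 or treated replicate 2) and 0 to 1 in the interaction (1 without treated sh*Ppargc1b* replicate 2). Over all genes the interaction gave 133 calls, against 394 with DESeq2, 525 without the filter, 425 with the block and 84 with library totals. Causes of these changes were not tested.

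The labels give no replicate numbers by which libraries could be paired. A block for the 3 runs of library codes gave 5 calls for IFN-β in sh*Ppargc1b* cells and 1 in the interaction, and it brought *Mgl2* (unstimulated knockdown, adjusted p = 0.0147) and *Clec10a* (knockdown with IFN-β, adjusted p = 0.0299) past the threshold. Libraries of 1 run deviated from their group means with correlations of 0.0276 to 0.146 over genes, and libraries of different runs with -0.154 to 0.0565. The block lowered the SE of *Mgl2* in the unstimulated knockdown from 0.13 to 0.04. *Retnla*, with 37 to 315 counts per library, had an SE of 0.30 and of 0.24 with the block.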
